A study of Mus musculus with 24 samples.

Results

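The genes described here are 10 genes of muscle atrophy and of FoxO signalling, listed by symbol and found by Ensembl identifier among the 54532 genes of the count tables: Fbxo32, Trim63, Fbxo30, Foxo1, Foxo3, Mstn, Klf15, Ddit4, Gadd45a and Cdkn1a. Their RNA was measured by sequencing the left gastrocnemius, the large calf muscle, of 24 wild-type C57/BL6 mice of unstated age, split into 6 groups of 4. For each sex these are sedentary controls, sedentary animals with a muscle pain model, and physically active animals with the same model. Controls had 2 injections of 20 µl saline at pH 7.2 ± 0.1 into the muscle, 5 days apart. Sedentary pain animals had 2 injections of the same volume and spacing at pH 5.0 ± 0.1, and the muscle was stimulated electrically to contract for 6 min just ahead of the second. Active pain animals had running wheels for 8 weeks before that procedure. All samples carry a time label of 24 h. The pain groups differ from each other in running alone, while controls had neither acid nor contraction, so acid and contraction cannot be told apart, and no group ran without the pain model.

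FoxO proteins are transcription factors that Akt, the kinase downstream of insulin and IGF-1, keeps out of the nucleus. In muscle that is unused, denervated or exposed to glucocorticoids they enter the nucleus and switch on ubiquitin ligases and autophagy genes, so that fibres break down contractile protein. Myostatin signalling, the glucocorticoid-induced factor Klf15 and the cell-cycle and stress genes Gadd45a and Cdkn1a belong to the same programme of muscle wasting.

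Values are CPM, read counts relative to library size, scaled by the trimmed mean of M-values (TMM), and a gene is said to have risen or fallen where edgeR's two-sided quasi-likelihood F test gave a Benjamini-Hochberg adjusted p under 0.05 over all genes tested. Libraries held between 17612139 and 34039699 counts, and each of the 10 genes had between 57 and 23171 counts in a library, so that all 10 passed the filter on low counts in every fit. The tissue label was checked with 25 muscle fibre genes, which together took 184704 to 391142 CPM in the 24 libraries and of which none was at 0 throughout a group. Male sedentary pain replicate 1 and male active pain replicate 2 stood apart from the rest of their groups in several of the 10 genes, and male results that rest on them are given with and without them. Female control replicate 4 was the highest of all 24 libraries for 4 of the genes, and female sedentary pain replicate 2 the highest for Gadd45a and the lowest for Mstn. Nothing in the labels describes the replicates beyond separate samples, so p-values measure the spread between these samples.

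**Figure D1:**
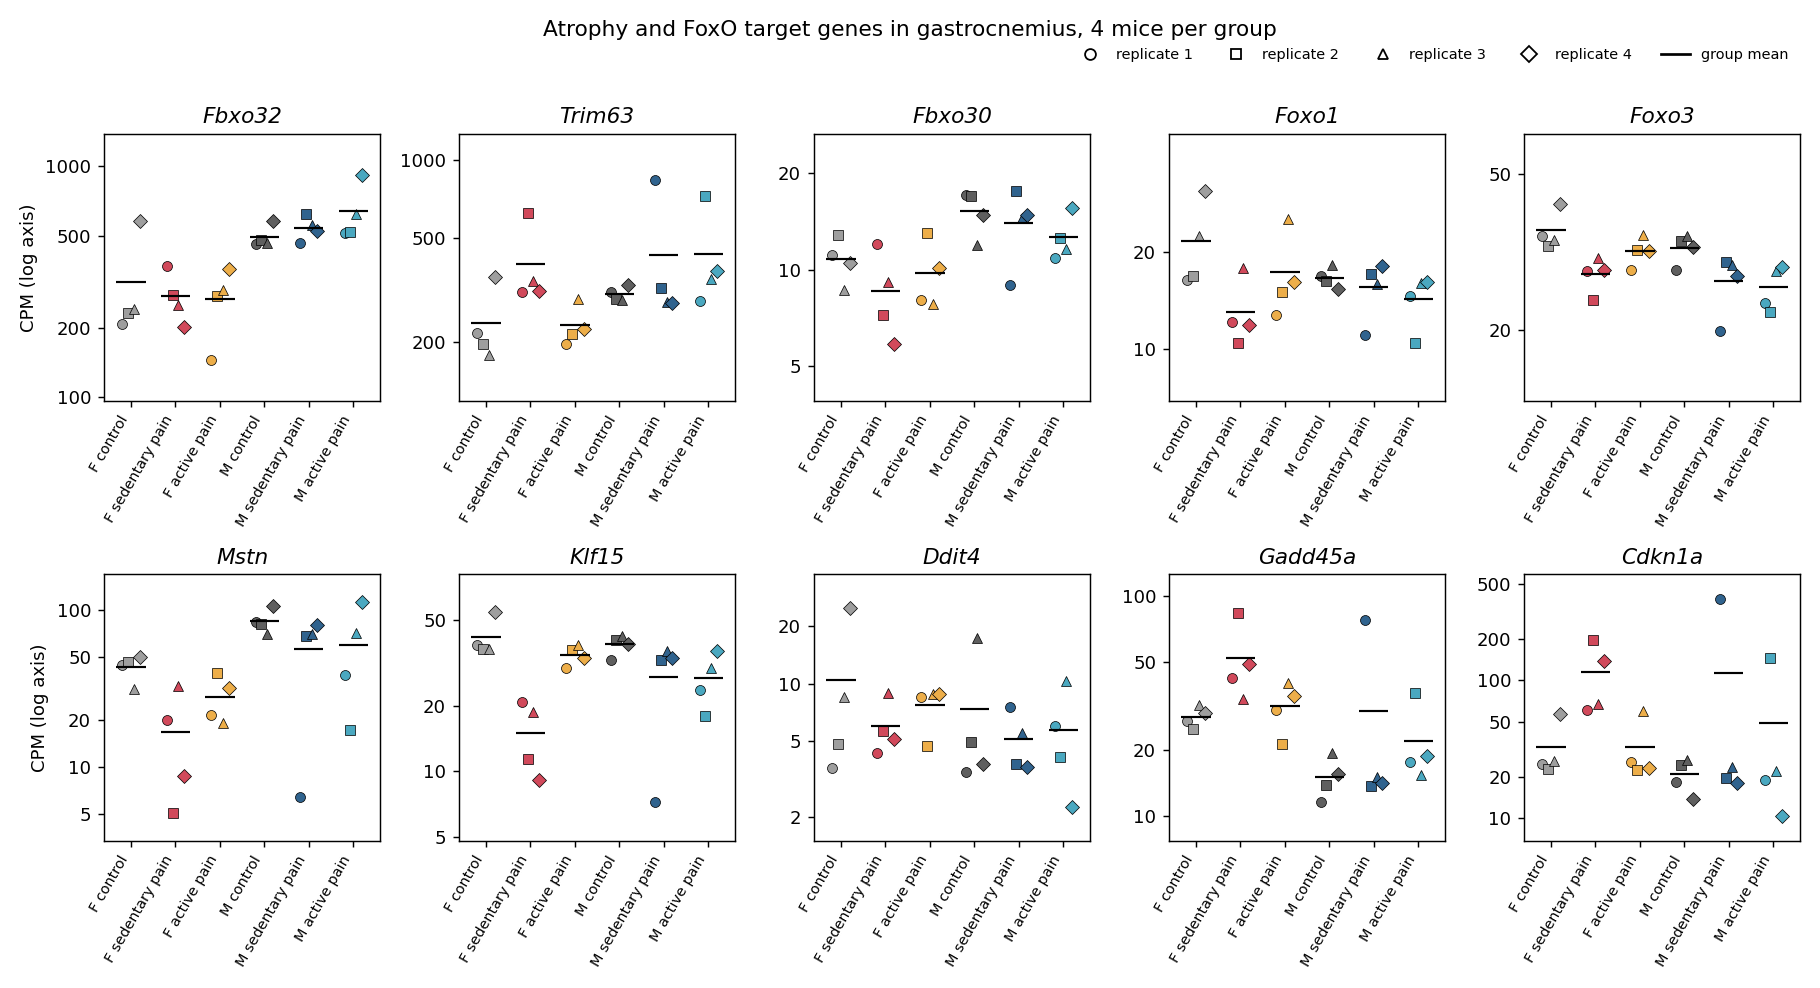
CPM of the 10 genes in each of the 24 libraries, on log axes, by sex (F, female; M, male) and group; each symbol is 1 mouse, its shape gives the replicate number and the line is the group mean of 4. Klf15 in female sedentary pain lies between 9.11 and 20.9 CPM, below all female controls, and 1 male sedentary pain library reaches 391 CPM for Cdkn1a.

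Per kilobase of exon, Trim63 had the highest mean level of the 10 in female controls, with 83.5 ± 28.6 CPM per kb (SD, n = 4), followed by Fbxo32 with 45.1 ± 25.4. The values of these ligase genes overlapped. Gadd45a, Mstn and Klf15 came next, with means of 16.0, 16.0 and 14.9 CPM per kb that were within each other's spread, then Cdkn1a with 9.22, Ddit4 with 5.98 and Foxo3 with 4.75. The values of these 3 genes overlapped from each to the next, and the Ddit4 mean rested on control replicate 4, at 14.3 CPM per kb where the other 3 had 2.05, 2.76 and 4.85. Foxo1 with 2.49 and Fbxo30 with 2.07 CPM per kb closed the order, and all values of Foxo1 lay under those of Foxo3. In male controls the order opened with Trim63 at 108 ± 6.53, Fbxo32 at 70.9 ± 7.85 and Mstn at 31.7 ± 5.61 CPM per kb, each without overlap with the next, and closed with Foxo1 at 1.92 ± 0.138.

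In females with sedentary pain, Cdkn1a and Gadd45a rose, and Foxo1, Foxo3, Mstn and Klf15 fell against controls, with the exception that Foxo3 took the opposite sign when libraries were scaled to muscle fibre genes. These are 6 of 10 genes, where 33.5% of the 14511 genes tested passed the same threshold, 19.6% higher and 13.9% lower. The share of all genes that passed ranged from 16.9% without sedentary pain replicate 4 to 44.9% without sedentary pain replicate 1 when 1 sample was left out. An unadjusted p under 0.05 was found for 7 of 10 genes, beside 47.6% of all genes. The groups' CPM values did not overlap for Foxo3, Klf15, Gadd45a and Cdkn1a, 4 of 10 genes, beside 26.3% of all genes tested. Without female sedentary pain replicate 2 and control replicate 4, left out together after the values were seen, 3 of 10 genes passed, namely Klf15, Cdkn1a and Trim63, beside 16.6% of all genes in that fit. The median log2 difference was -0.37 over the 10 genes and -0.02 over all genes. Scaling to the fibre genes instead of TMM moved the median of all genes by 0.46 and the share of higher genes among those called from 58.5% to 96.3%, and a correction for GC content and length moved that share to 43.9%. The fibre genes themselves had a median log2 difference of -0.41 with TMM. Scaling to them therefore shifted differences upward in general, that of Foxo3 included. Fewer cells of a type and less RNA per cell cannot be told apart in these whole-muscle samples.

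The ubiquitin ligase genes did not pass the threshold in females. Fbxo32 (ENSMUSG00000022358, chromosome 15, 58175879 to 58214932) encodes atrogin-1, the substrate receptor of an SCF ligase that is a standard marker of wasting muscle. It had 208, 230.1, 241 and 579.9 CPM in female control replicates 1 to 4, and 371, 278, 249.4 and 202 CPM in sedentary pain. The control values spanned all but 1 of the pain values, and the log2 difference was -0.21 ± 0.36 (SE; edgeR adjusted p = 0.658), and 0.26 (adjusted p = 0.514) without control replicate 4. Its active pain values were 145, 273, 291 and 359.6 CPM, and the difference from sedentary pain was -0.02 ± 0.36 (edgeR adjusted p = 0.969). Fbxo30 (ENSMUSG00000047648, chromosome 10, 11281330 to 11298052), the ligase also called MUSA1, ranged from 8.63 to 12.9 CPM in female controls, 5.86 to 12.02 in sedentary pain and 7.81 to 13.02 in active pain, which overlap. Under fibre gene scaling the sedentary pain difference was 0.17 for Fbxo32 and 0.09 for Fbxo30, opposite in sign to the values with TMM.

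Trim63 (ENSMUSG00000028834, chromosome 4, 134315120 to 134329629), which encodes MuRF1, a RING ligase of the sarcomere that targets myosin, had values closer to the threshold. They were 218, 196, 179 and 357 CPM in female control replicates 1 to 4 and 312, 628, 342 and 313 CPM in sedentary pain. Control replicate 4 was the only control within the range of the pain values. The log2 difference of 0.73 ± 0.27 (SE) did not pass (edgeR adjusted p = 0.0565), and it passed in 5 of 25 alternative fits, among them fibre gene scaling (1.11, adjusted p = 0.0105), the fit without control replicate 4 (0.99, 0.0244), DESeq2 (0.75, 0.0305) and the fit without sedentary pain replicate 1 (0.85, 0.0344). Without sedentary pain replicate 2 it was 0.43 (adjusted p = 0.169), and with the correction for GC content and length 0.37 (adjusted p = 0.282). In active pain the values were 197, 215, 294 and 225 CPM, all below those of sedentary pain, with a log2 difference of -0.76 ± 0.27 (edgeR adjusted p = 0.0833). That difference passed without sedentary pain replicate 1 (-0.89, adjusted p = 0.0399).

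The promoter of Trim63 is shown because it holds a FoxO element and a glucocorticoid receptor half-site side by side. The sequence is RefSeq's for the 250 bases before the start of the gene, chr4:134314870-134315119 on the plus strand of GRCm38.p6. Capitals mark the half-site, written TGTTCT, at -200 to -195 and, directly after it, the FoxO element, written TGTTTAC, at -194 to -188, counted from the start of the gene with -1 as the base before it.
Trim63: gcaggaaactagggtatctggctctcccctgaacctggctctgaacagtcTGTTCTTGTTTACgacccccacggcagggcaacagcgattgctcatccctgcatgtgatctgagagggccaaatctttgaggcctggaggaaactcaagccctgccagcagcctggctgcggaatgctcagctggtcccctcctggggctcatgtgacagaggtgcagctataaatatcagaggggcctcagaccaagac
Searched on both strands of the same windows, GTAAACA or its complement occurred in 3.17% and AGAACA or its complement in 16.1% of 32851 promoters, and among the 9 of 10 genes with a promoter in the table Trim63 was the 1 that held either. A match describes the letters and shows no binding.

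Both FoxO genes fell in female sedentary pain as scaled by TMM, and Foxo3 had the opposite sign with fibre gene scaling. Foxo3 (ENSMUSG00000048756, chromosome 10, 42181841 to 42276755) had 34.8, 32.8, 34.04 and 42.0 CPM in female control replicates 1 to 4, and 28.4, 23.9, 30.5 and 28.6 CPM in sedentary pain. Every pain value was below every control value. The log2 change was -0.39 ± 0.12 (SE; edgeR adjusted p = 0.0312), a fold of 0.765, and with fibre gene scaling it was 0.10 (adjusted p = 0.814). It was lost in 9 of 25 alternative fits, 4 of them among the 12 that left out 1 sample, namely without sedentary pain replicate 2 or 4 (adjusted p = 0.0741 and 0.068) or control replicate 1 or 4 (0.0606 and 0.0862).

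Foxo1 (ENSMUSG00000044167, chromosome 3, 52268336 to 52353221), a close relative of Foxo3 that also acts in the fasting response of muscle, had 16.4, 16.9, 22.4 and 30.7 CPM in female control replicates 1 to 4. In sedentary pain it had 12.2, 10.4, 17.8 and 11.9 CPM. Pain replicate 3 lay among the controls and the other 3 were below all of them. The log2 change was -0.74 ± 0.26 (SE; edgeR adjusted p = 0.0472), close to the threshold, and it was lost in 13 of 25 alternative fits, 9 of them among the 12 that left out 1 sample, with the highest adjusted p without control replicate 4 (-0.53, adjusted p = 0.137). With fibre gene scaling the difference was -0.26 (adjusted p = 0.638). In active pain Foxo1 ranged from 12.7 to 25.2 CPM and Foxo3 from 28.5 to 34.9 CPM, and the differences from sedentary pain, 0.42 ± 0.26 and 0.21 ± 0.12, did not pass (edgeR adjusted p = 0.278 and 0.237).

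Mstn (ENSMUSG00000026100, chromosome 1, 53061640 to 53068079) encodes myostatin, the secreted TGF-beta family protein that restrains muscle growth. Female control replicates 1 to 4 had 44.6, 46.5, 31.5 and 50.5 CPM, and sedentary pain replicates 20.0, 5.08, 32.7 and 8.79 CPM. Replicate 3 of sedentary pain overlapped the lowest control, and the other 3 lay below, over a range wider than that of any other group of females. The log2 change was -1.39 ± 0.47 (SE; edgeR adjusted p = 0.041), a fold of 0.382. It was lost in 12 of 25 alternative fits, among them without sedentary pain replicate 2 (-1.09, adjusted p = 0.0642) or 4 (-1.16, 0.113), without control replicate 1, 2 or 4 (adjusted p = 0.0734, 0.0817 and 0.0834), without active pain replicate 4 (0.0528) and with the replicate block (-1.48, 0.0744), and with fibre gene scaling it was -0.84 (adjusted p = 0.271). Active pain values of 21.4, 39.5, 18.9 and 31.6 CPM lay between, and differed from sedentary pain by 0.76 ± 0.46 (edgeR adjusted p = 0.267).

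Klf15 gave the smallest p of the 10 genes in this comparison. Klf15 (ENSMUSG00000030087, chromosome 6, 90462576 to 90475238) is a Krüppel-like factor that glucocorticoids induce in muscle and that promotes branched-chain amino acid breakdown. Female control replicates 1 to 4 had 38.5, 36.9, 36.8 and 54.3 CPM, sedentary pain 20.9, 11.4, 18.8 and 9.11 CPM, and active pain 30.0, 36.5, 38.6 and 33.5 CPM. All sedentary pain values lay below all values of both other groups, while controls and active pain overlapped. The log2 change with sedentary pain was -1.48 ± 0.25 (SE; edgeR adjusted p = 0.00303), a fold of 0.359, and stayed past the threshold in all 25 alternative fits, including the scaling to fibre genes (-1.05, adjusted p = 0.0238). Active pain was higher than sedentary pain by 1.22 ± 0.25 (edgeR adjusted p = 0.0328), which was lost in 7 of 25 alternative fits, in 6 of which at most 3 of all genes passed.

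The Klf15 promoter is shown because the same hexamer occurs in it more than once. It is RefSeq's sequence for the 250 bases before the start of the gene, chr6:90462326-90462575 on the plus strand of GRCm38.p6. Capitals mark the E-box CACGTG, at -228 to -223 and at -172 to -167.
Klf15: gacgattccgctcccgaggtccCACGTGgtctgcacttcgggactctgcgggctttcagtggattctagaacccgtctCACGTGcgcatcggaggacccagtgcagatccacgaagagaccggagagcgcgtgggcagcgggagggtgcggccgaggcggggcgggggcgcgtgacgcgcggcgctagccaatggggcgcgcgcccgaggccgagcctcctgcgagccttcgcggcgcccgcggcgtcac
CACGTG, which reads the same on both strands, occurred in 6.02% of the 32851 promoters and in 1 of the 9 genes with an entry. Neither GTAAACA nor AGAACA was in this window, which speaks of these letters and these bases only.

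Ddit4 (ENSMUSG00000020108, chromosome 10, 59949669 to 59951834) encodes REDD1, an inhibitor of mTORC1 induced by hypoxia and glucocorticoids. One control stood apart. Female control replicate 4 had 25.02 CPM and the other controls 3.60, 4.84 and 8.51 CPM, and sedentary pain ranged from 4.35 to 8.98 and active pain from 4.73 to 8.85 CPM. The log2 difference of sedentary pain from control was -0.82 ± 0.52 (SE; edgeR adjusted p = 0.223), and 0.07 (adjusted p = 0.9) without control replicate 4.

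The stress genes moved the other way. Cdkn1a (ENSMUSG00000023067, chromosome 17, 29090976 to 29100727) encodes p21, the inhibitor of cyclin-dependent kinases that p53 switches on. It had 24.7, 22.7, 26.0 and 57.5 CPM in female control replicates 1 to 4, 60.6, 197, 67.4 and 137 CPM in sedentary pain, and 25.5, 22.4, 60.1 and 23.2 CPM in active pain. Each sedentary pain value exceeded every value of the other female groups, though the highest control and the highest active pain value came within a few CPM of the lowest. Cdkn1a rose with sedentary pain by 1.80 ± 0.47 on the log2 scale (SE; edgeR adjusted p = 0.016), a fold of 3.48. It lost the call in 2 of 25 alternative fits, with all 24 samples in 1 fit (adjusted p = 0.107) and with 1 surrogate variable (0.0613).

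Active pain was lower than sedentary pain for Cdkn1a by the same size, with a log2 change of -1.80 ± 0.47 (edgeR adjusted p = 0.0353). The call was lost in 11 of 25 alternative fits, among them without active pain replicate 1, 2 or 4 or sedentary pain replicate 3 or 4, where at most 3 of all genes passed, and without sedentary pain replicate 2, where 11.9% did. Over these 6 fits the log2 difference ranged from -2.01 to -1.44 (adjusted p from 0.0636 to 0.105). Against control, active pain differed by 0.00 ± 0.46 (edgeR adjusted p = 1.0). The comparisons of active with sedentary pain and of sedentary pain with control share the sedentary pain samples, so a gene high in those samples differs in both.

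Gadd45a (ENSMUSG00000036390, chromosome 6, 67035096 to 67037457), a growth arrest gene that Atf4 induces in denervated and fasted muscle, had 27.0, 24.9, 31.9 and 29.5 CPM in female control replicates 1 to 4 and 42.6, 84.1, 33.97 and 49.3 CPM in sedentary pain. The groups did not overlap, with sedentary pain replicate 3 close above control replicate 3. The log2 change was 0.87 ± 0.26 (SE; edgeR adjusted p = 0.0274). It was lost in 11 of 25 alternative fits, among them without sedentary pain replicate 2 (0.56, adjusted p = 0.0662) or 4 (0.92, 0.0511), without control replicate 1, 2 or 4 (adjusted p = 0.063, 0.0725 and 0.0565), with the replicate block (0.85, 0.0608), with 1 surrogate variable (0.58, 0.0735) and with the correction for GC content and length (0.49, 0.104). Active pain, with 30.2, 21.3, 40.3 and 35.2 CPM, differed from sedentary pain by -0.70 ± 0.26 (edgeR adjusted p = 0.0895), and passed in 2 of 25 alternative fits, with fibre gene scaling (-1.11, adjusted p = 0.0246) and without sedentary pain replicate 1 (-0.83, 0.0467). An antisense gene overlaps the exons of Gadd45a and held at most 18 counts in a library; what the counting did with strand is not given, so reads of the pair may be mixed.

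The Cdkn1a promoter is shown for its p53 half-sites. It is RefSeq's sequence for chr17:29090729-29090975 on the plus strand of GRCm38.p6, the 247 bases up to the gene's first base in GENCODE. Capitals mark half-sites of the p53 consensus at -73 to -64 and -51 to -42, counted here from RefSeq's start of the gene, whose window runs 3 bases past the sequence printed.
Cdkn1a: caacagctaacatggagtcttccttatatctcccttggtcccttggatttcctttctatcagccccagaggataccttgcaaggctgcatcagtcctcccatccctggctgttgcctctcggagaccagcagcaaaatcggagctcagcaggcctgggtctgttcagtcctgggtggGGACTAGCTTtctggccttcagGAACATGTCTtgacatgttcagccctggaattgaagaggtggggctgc
At least 1 such half-site occurred in 7.13% of the 32851 promoters searched on both strands, and in 2 of the 9 genes with an entry, Cdkn1a and Gadd45a. Bases outside the window, and any other start of the gene, were not examined.

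**Figure D2:**
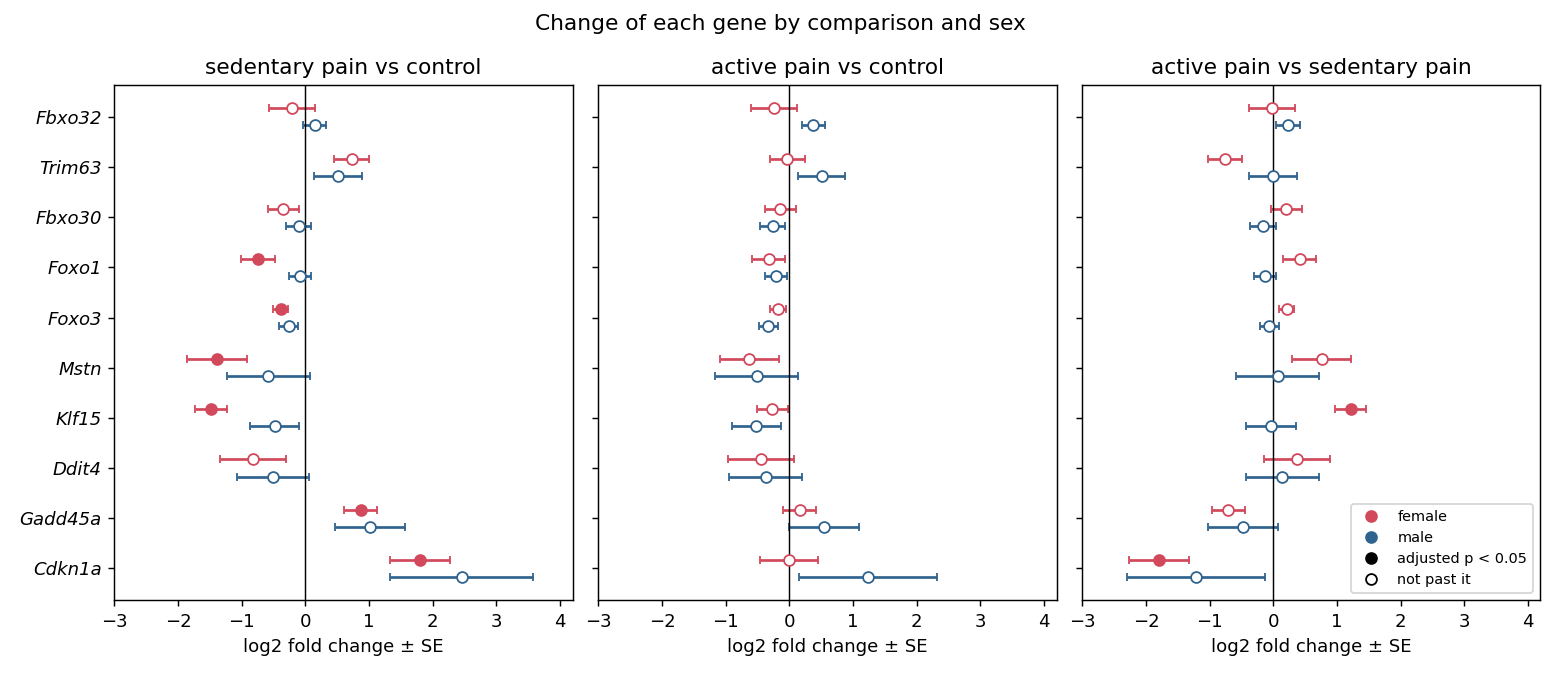
Log2 fold change of the 10 genes in the 3 comparisons within each sex, with SE as bars; filled points passed an adjusted p of 0.05 in edgeR. The 6 filled points of sedentary pain against control are all female, and Foxo3, one of them, changed sign under fibre gene scaling.

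Active against sedentary pain in females thus gave 2 calls among the 10 genes, Klf15 higher and Cdkn1a lower, beside 11.9% of all genes tested (2.51% higher and 9.41% lower). That share hung on single libraries: 0 of all genes passed without active pain replicate 1, 2 or 4 or sedentary pain replicate 4, 3 genes passed without sedentary pain replicate 3, and 29% passed without sedentary pain replicate 1. The values of Trim63, Klf15 and Cdkn1a did not overlap between these groups, 3 of 10 genes beside 11.8% of all genes, and 4 of 10 had an unadjusted p under 0.05, beside 32.2%. Scaling to fibre genes moved the median of all genes in this comparison by -0.48 and the share of higher calls from 21.04% to 0.966%, and the GC and length correction moved it to 33.6%, or 51.7% with the replicate block. Under fibre gene scaling Klf15 differed by 0.78 (adjusted p = 0.0863) and Trim63 by -1.15 (0.0246).

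Between female active pain and control, 0 of the 10 genes passed in edgeR, where 0 of all genes did, and 0 of the 10 had an unadjusted p under 0.05, beside 7.03% of all genes. DESeq2 gave 0 of the 10 as well, beside 0.862% of all genes, and 0 of the 10 were without overlap, beside 5.44%. The largest differences were -0.63 ± 0.46 for Mstn and -0.44 ± 0.51 for Ddit4, and the latter was 0.45 without control replicate 4. These are differences not detected with 4 animals a group. Klf15 at -0.26 ± 0.24 and Gadd45a at 0.16 ± 0.26 had a smaller SE.

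The number in the library names was 20 or lower for replicates 1 and 2 and 25 or higher for replicates 3 and 4, and differences were recomputed within each class from mean log2 CPM. For sedentary pain against control in females, Klf15 differed by -1.52 over all replicates, -1.28 in replicates 1 and 2 and -1.76 in replicates 3 and 4. Cdkn1a differed by 1.76, 2.20 and 1.31, and Mstn by -1.70, -2.17 and -1.23. Gadd45a gave 0.81, 1.21 and 0.42, Foxo1 -0.70, -0.56 and -0.85, and Foxo3 -0.37, -0.38 and -0.36. Fbxo32 differed by 0.55 in replicates 1 and 2 and by -0.74 in replicates 3 and 4, and Ddit4 by 0.25 and -1.10.

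In males the 10 genes showed no change that passed. For sedentary pain against control 0 of 10 passed in edgeR, beside 0 of 14404 genes. DESeq2 called 0 of the 8 for which it gave an adjusted p, beside 1.9% of all genes, and gave none for Gadd45a and Cdkn1a in any male comparison. In edgeR 0 had an unadjusted p under 0.05, beside 8.84% of all genes, or values without overlap, beside 8.07%. Replicate 1 of male sedentary pain set most of the spread. It had 391 CPM of Cdkn1a, where replicates 2 to 4 had 19.6, 23.7 and 17.9 CPM and control replicates 1 to 4 had 18.4, 24.5, 26.7 and 13.7 CPM. Apart from that mouse, the sedentary pain males lay inside the range of the controls.

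Of the other genes, Gadd45a, Klf15, Mstn and Trim63 also set this library apart from its group. Gadd45a had 77.7 CPM in male sedentary pain replicate 1 and 13.6 to 15.03 CPM in the other 3, with controls from 11.5 to 19.3 CPM. Klf15 had 7.19 CPM in replicate 1 and 32.7 to 36.0 CPM in the other 3, with controls from 32.6 to 42.3 CPM. Mstn had 6.46 CPM against 68.5 to 81.0 CPM, with controls from 70.3 to 107 CPM. Trim63 had 835 CPM against 283 to 323 CPM, with controls from 291 to 330.0 CPM. Of the 24 libraries, this one was highest for Trim63 and Cdkn1a and lowest for Foxo3 and Klf15.

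The log2 difference of male sedentary pain from control was 2.46 ± 1.12 (SE) for Cdkn1a (edgeR adjusted p = 0.564) and -0.01 without replicate 1. For Gadd45a it was 1.02 ± 0.55 and -0.06 without that replicate, for Klf15 -0.48 ± 0.39 and -0.17, for Mstn -0.58 ± 0.65 and -0.21, and for Trim63 0.51 ± 0.37 and -0.03. Fbxo32, with 459.9, 477, 466 and 576 CPM in male controls and 466, 623, 556 and 523 CPM in sedentary pain, was not set apart in replicate 1, and its difference was 0.15 ± 0.18 and 0.21 without it. Foxo3 gave -0.26 ± 0.15 and -0.15. Without replicate 1 all 10 genes again stayed above the threshold (adjusted p = 1.0 for each).

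In male active pain, replicate 2 stood apart. Cdkn1a had 19.1, 146, 21.9 and 10.4 CPM in replicates 1 to 4, Gadd45a 17.5, 36.1, 15.4 and 18.7 CPM, and Trim63 288, 728, 348 and 376 CPM. Replicate 2 was the highest of its group in all 3 genes. It was the lowest for Mstn, with 17.3 CPM beside 38.7, 71.4 and 113, and for Klf15, with 17.99 CPM beside 23.8, 30.0 and 35.9.

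Against male controls 0 of 10 genes passed for active pain in edgeR, beside 0 of 14404 genes, and 0 of 8 in DESeq2, beside 0.892%. Foxo3 was the 1 gene with an unadjusted p under 0.05 (edgeR adjusted p = 0.634), beside 7.25% of all genes, and 0 of 10 were without overlap, beside 10.4%. Foxo3 was measured with 23.5, 22.3, 28.4 and 29.0 CPM in active pain and 28.4, 33.8, 34.9 and 32.6 CPM in controls. Its difference was -0.33 ± 0.15, and -0.25 without active pain replicate 2. Cdkn1a differed by 1.243 ± 1.08 and by -0.27 without that replicate, Gadd45a by 0.54 ± 0.55 and 0.20, and Trim63 by 0.51 ± 0.37 and 0.15. Mstn differed by -0.51 ± 0.65 and by -0.20 without it, and Klf15 by -0.52 ± 0.39 and -0.36. Fbxo32, with 511, 520.1, 619 and 917 CPM in active pain, differed by 0.38 ± 0.18 and by 0.47 without replicate 2. For active against sedentary pain, 0 of 10 passed in edgeR and 0 of 8 in DESeq2, beside 0 of all genes in both, with 0 in edgeR at an unadjusted p under 0.05, beside 0.84% of all genes, and 0 without overlap, beside 0.646%. Cdkn1a there was -1.21 ± 1.08, and it ranged from -2.72 to 1.26 over 25 alternative fits. The value without male sedentary pain replicate 1 was 1.26, the 1 with the opposite sign.

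**Figure D3:**
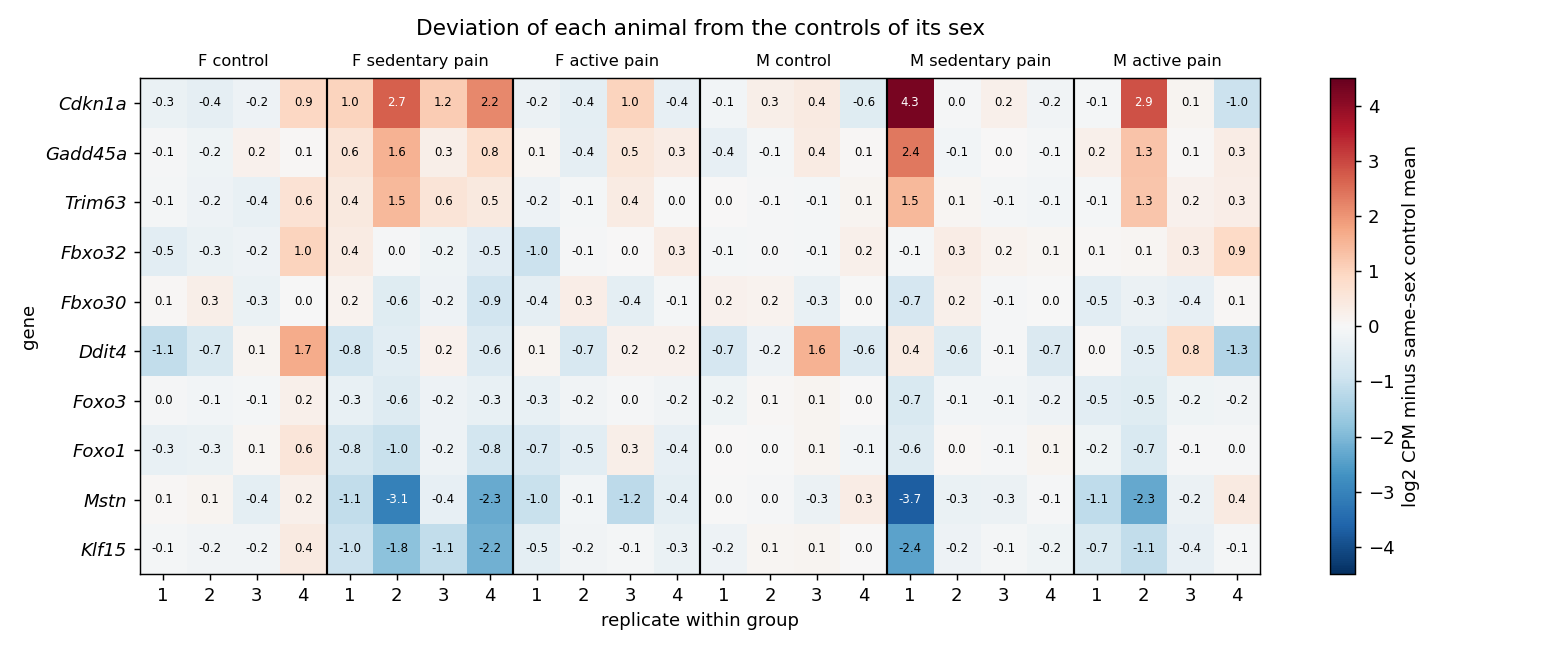
Log2 CPM of the 10 genes in each library minus the mean of the controls of the same sex, with F for female and M for male; red is higher and blue lower. Male sedentary pain replicate 1 and male active pain replicate 2 carry the same signs as the female sedentary pain libraries for Cdkn1a, Gadd45a, Mstn and Klf15.

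Whether a change differed between the sexes was tested over all 24 samples and 15103 genes. For sedentary pain against control 0 of 10 genes passed, beside 0 of all genes, and 0 had an unadjusted p under 0.05, beside 9.57% of all genes; the smallest p was that of Klf15, at -0.48 in males and -1.48 in females, a difference of male minus female of 0.96 ± 0.48 (SE; edgeR adjusted p = 0.542). Without male sedentary pain replicate 1 and male active pain replicate 2, left out together after the values were seen, this difference was 1.34 (adjusted p = 0.0366), the 1 call among the 10 genes, beside 3.85% of all genes. For active pain against control 0 of 10 passed, beside 0 of all genes, with 0 at an unadjusted p under 0.05, beside 2.03%. DESeq2 called 0 of the 10 in both, beside 0.0994% and 0.0199% of all genes.

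For active against sedentary pain 0 of 10 genes passed in edgeR, beside 0 of all genes, and in DESeq2, beside 0.936%, and Klf15 was the 1 gene with an unadjusted p under 0.05 (-1.22 ± 0.48, edgeR adjusted p = 0.277), beside 14.7%. Without male sedentary pain replicate 1 alone, 4 of 10 genes passed, beside 14.1% of all genes in that fit: Trim63 (1.33, adjusted p = 0.0351), Klf15 (-1.54, 0.0228), Gadd45a (1.34, 0.0342) and Cdkn1a (3.09, 0.0351). With male active pain replicate 2 also left out 0 of 10 did, beside 0 of all genes, and Cdkn1a was at 1.53 (adjusted p = 0.135). The calls for a difference between the sexes thus depended on which of these male libraries entered.

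Between male and female controls 0 of 10 genes passed in edgeR, beside 2.83% of all genes (1.54% higher and 1.28% lower in males), and in DESeq2, beside 4.77%, and Fbxo32 and Fbxo30 had an unadjusted p under 0.05, beside 14.9%. Mstn had 84.0, 82.2, 70.3 and 107 CPM in males, all above the 31.5 to 50.5 CPM of females, a log2 difference of 0.99 ± 0.59 (SE; edgeR adjusted p = 0.443). Gadd45a had 11.5 to 19.3 CPM in males, all below the 24.9 to 31.9 CPM of females, a difference of -0.91 ± 0.45 (adjusted p = 0.354). These are 2 of 10 genes without overlap, beside 22.3%. With the 8 control samples fitted alone, Mstn (0.97, adjusted p = 0.00778) and Gadd45a (-0.93, 0.00575) passed, beside 13.5% of all genes. Fbxo32 differed by 0.65 ± 0.30 (edgeR adjusted p = 0.306), and by 1.15 (adjusted p = 0.0347) without female control replicate 4. Marker genes of adipocytes, 10 in number, summed to 352 to 932 CPM in male and 511 to 6242 CPM in female controls. Of them 3 passed as lower in males, beside 1.28% of all genes, and their part in these differences was not tested.

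The wider pathways were followed with 7 gene lists. Of 25 further ubiquitin ligase and proteasome genes, 6 rose and 5 fell in female sedentary pain, where 19.6% of all genes rose and 13.9% fell. The median log2 difference of this list was -0.17. Psmd8, a subunit of the proteasome's regulatory particle, rose by 0.97 ± 0.17 (edgeR adjusted p = 0.00327) and Psma2, of its core, by 0.42 ± 0.10, while the ligases Trim32 (-0.68 ± 0.20) and Trim55 (-0.71 ± 0.22), the latter a relative of MuRF1, fell. Of 23 autophagy and lysosome genes, 7 rose and 4 fell, with a median of 0.12. The cargo receptor Sqstm1 rose by 1.07 ± 0.19 and the lysosomal regulator Tfe3 by 1.29 ± 0.30, and Bnip3 (-0.71 ± 0.13), a mitophagy receptor, and Ulk1 (-0.87 ± 0.22), the kinase that starts autophagy, fell.

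Of 22 FoxO metabolic and feedback targets tested, 2 rose and 7 fell, with a median of -0.37. Klf2, a transcription factor of endothelial and immune cells, rose by 2.00 ± 0.46 and Eif4ebp1, the translation repressor 4E-BP1, by 0.84 ± 0.29. Insr, the insulin receptor, fell (-0.91 ± 0.19), as did Foxo4, the third FoxO factor of muscle (-0.82 ± 0.19). Of 20 myostatin and activin pathway genes tested, 0 rose and 5 fell, with a median of -0.52, led by Ltbp3 (-0.55 ± 0.12) and Ltbp4 (-0.71 ± 0.18), which bind latent TGF-beta. Of 24 genes of the IGF-1, Akt and mTORC1 pathway, 2 rose and 10 fell, with a median of -0.41; the kinase Akt1 rose by 0.50 ± 0.14 and the ribosomal protein Rps6 by 0.66 ± 0.21, and Pdk1 (-0.78 ± 0.17), a pyruvate dehydrogenase kinase in spite of its place in the list, and Deptor (-0.89 ± 0.22), an mTOR inhibitor, fell.

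Of 19 glucocorticoid-responsive genes tested, 6 rose and 1 fell, with a median of -0.04. Mt2 (6.04 ± 0.71) and Mt1 (4.505 ± 0.68), metal-binding proteins that inflammation also induces, rose most clearly by p, and the 1 that fell was Fkbp5 (-1.06 ± 0.31), a chaperone of the glucocorticoid receptor. Of 23 p53 and stress-response genes, 10 rose and 3 fell, with a median of 0.69. Trp53 itself rose by 0.95 ± 0.14 (edgeR adjusted p = 0.0026) and its target Plk2 by 1.70 ± 0.28, while Cdkn1c (-0.83 ± 0.16), a sister inhibitor of Cdkn1a, and Ccng1 (-0.93 ± 0.26), another p53 target, fell. These shares are to be read against the 19.6% higher and 13.9% lower of all genes. Of the genes named from the lists in this comparison, Eif4ebp1 lost its call in 15 of 25 alternative fits, Rps6 in 11, Fkbp5 in 8, Trim55 in 7, Trim32 in 6 and Ccng1 in 5, and the others in at most 2. Scaling to fibre genes counts as 1 of these fits, and with it 158 of all genes passed as lower, where 2020 did with TMM.

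**Figure D4:**
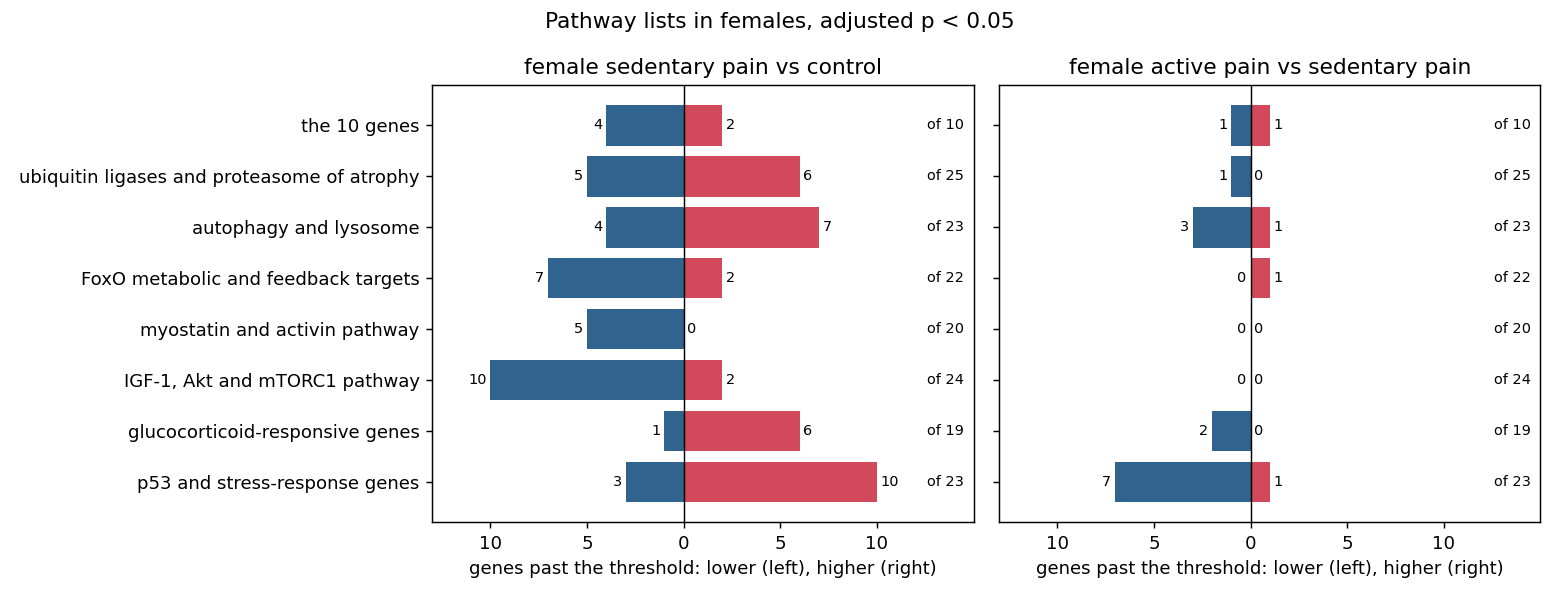
Number of genes higher (red, to the right) and lower (blue, to the left) at an adjusted p under 0.05 in edgeR in females, for the 10 genes and 7 pathway lists, with the number tested at the right. In sedentary pain the p53 and stress list has 10 higher of 23 and the IGF-1, Akt and mTORC1 list 10 lower of 24, where 19.6% of all genes are higher and 13.9% lower; in active against sedentary pain 7 of 23 p53 and stress genes are lower, where 9.41% of all genes are.

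Between active and sedentary pain in females, 7 p53 and stress-response genes of 23 fell and 1 rose, where 9.41% of all genes fell and 2.51% rose. Plk2 (-1.87 ± 0.28) and Trp53 (-0.76 ± 0.14) were among those that fell, and Cdkn1c rose by 0.59 ± 0.16. In the autophagy list Sqstm1 (-0.73 ± 0.19) and Tfe3 (-1.19 ± 0.30) were among 3 that fell and Bnip3 (0.53 ± 0.13) was the 1 that rose. Psmd8 (-0.66 ± 0.17) was the 1 proteasome gene that fell, Foxo4 (0.66 ± 0.19) the 1 FoxO target that rose, and Mt2 (-2.48 ± 0.60) and Mt1 (-2.20 ± 0.61) the 2 glucocorticoid-responsive genes that fell. In the myostatin list 0 of 20 genes and in the IGF-1 list 0 of 24 passed in edgeR. In each of these lists 5 genes had an unadjusted p under 0.05, beside 32.2% of all genes. All these calls were lost in some of the 25 alternative fits, of which 6 called at most 3 of all genes: Foxo4 in 15, Mt1 in 14, Cdkn1c in 13, Psmd8 in 12, Sqstm1 in 11, Bnip3 in 10, Mt2 in 9, Tfe3 in 8, and Plk2 and Trp53 in 6 each.

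In female active pain against control and in all 3 male comparisons, 0 genes of any of the 7 lists passed in edgeR, and neither did any of the 14511 genes tested in females and 14404 in males. Pdk4, the pyruvate dehydrogenase kinase that FoxO1 induces in fasting, differed by 1.504 ± 0.51 in female active pain against control (adjusted p = 0.598). Between male and female controls Psmd8 (0.97 ± 0.19), Tsc22d1 (0.71 ± 0.11) and Eda2r (1.57 ± 0.31), a receptor of the TNF family linked to muscle wasting, were higher in males and Glul (-1.10 ± 0.29), glutamine synthetase, lower. The Glul call was lost in 15 of 36 alternative fits.

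Markers of other cell types moved with these groups. The 20 macrophage and monocyte markers summed to 134 to 310.4 CPM in female controls, 723 to 8845 in sedentary pain and 361 to 809 in active pain. Of them 19 rose in sedentary pain, where 19.6% of all genes did, and 17 fell in active against sedentary pain, where 9.41% did. The 10 neutrophil markers summed to 3.03 to 9.62, 26.2 to 286 and 9.27 to 122 CPM. In female sedentary pain the library with the highest Cdkn1a, replicate 2, had the highest neutrophil sum but 1377 CPM of macrophage markers, below the 5857 and 8845 CPM of replicates 3 and 4. In males, the library with the highest Cdkn1a of its group also had the highest sums: sedentary pain replicate 1 had 1345 CPM of macrophage and 328 CPM of neutrophil markers, where the other 3 had 209 to 678 and 6.09 to 7.34 CPM, and active pain replicate 2 had 814 and 92.6 CPM, where the other 3 had 325 to 538 and 9.06 to 14.1 CPM. Male controls had 94.0 to 205 and 3.65 to 14.8 CPM, with Ly6g at 0 in all 4.

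Other lists gave further values, to be read against the 19.6% of all genes that rose and the 13.9% that fell in female sedentary pain. Satellite cell markers, 8 genes, summed to 56.1 to 69.6 CPM in female controls and 67.7 to 201 CPM in sedentary pain, where 2 of 7 tested rose and the median log2 difference of the 7 was -0.30, and to 151 CPM in male sedentary pain replicate 1 beside 55.5 to 57.9 CPM in the other 3. In male active pain replicate 2 they summed to 104 CPM, beside 55.1 to 65.0 CPM in the rest of its group. The 12 lymphocyte markers summed to 0.841 to 3.82 CPM in female controls. In female sedentary pain replicates 1 to 4 they summed to 4.95, 8.70, 73.4 and 131 CPM. Only 6 of the 12 passed the filter on low counts, which a gene can pass through the group where it is high. That all 6 rose is therefore no support for a rise. Of 10 adipocyte markers 9 fell. Their sum was 658, 511, 6242 and 3251 CPM in female control replicates 1 to 4 and 292 to 841 CPM in sedentary pain. Control replicates 1 and 2 thus lay within the range of sedentary pain. Fibre markers summed to 256730 to 363759 CPM in female controls. In female sedentary pain replicates 1 to 4 they summed to 277216, 346346, 191417 and 184704 CPM, so that replicates 3 and 4 lay below all controls. Of the 25 markers 1 rose and 6 fell. In male active pain replicate 2 the sum was 221770 CPM, beside 293596 to 333010 CPM in the rest of its group. The share of mitochondrial transcripts was 2.75% to 8.22% in female sedentary pain and 8.59% to 11.02% in controls, and 4.53% in male sedentary pain replicate 1 beside 10.4% to 11.3% in the other 3. The part of these cell types and of RNA composition in the changes of the 10 genes was not tested.

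Sums of fibroblast, endothelial and nerve markers overlapped between female controls and sedentary pain. Fibroblast markers were at 783 to 995 CPM in controls and 744 to 1906 CPM in sedentary pain. Sedentary pain replicates 3 and 4 lay above all controls, and 3 of 10 markers rose, beside 19.6% of all genes. Endothelial markers were at 263 to 313 and 231 to 271 CPM, and 2 of 10 fell, beside 13.9% of all genes. Nerve and Schwann cell markers were at 99.01 to 260.3 and 103 to 139.6 CPM, with Nefl at 0 in all female sedentary pain and all male control libraries.

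Genes with the most similar course over the 24 libraries were sought among 15103 genes by Pearson's r of log2 CPM, as a description over samples that share their groups and the libraries that stand apart. For Cdkn1a these were Btg2 (r = 0.962, Spearman's rho = 0.832), a p53-induced antiproliferative gene, 1700017B05Rik (0.945, 0.951) and Srm (0.942, 0.872), which encodes spermidine synthase. For Klf15 they were Oat (0.945, 0.832), Snrk (0.942, 0.722) and Acad11 (0.941, 0.72). For Mstn they were Mef2a (0.987, 0.975), a transcription factor of muscle, Usp25 (0.987, 0.98) and Trpm7 (0.984, 0.974). Trim63 was closest to Ppp1r15a (0.886, 0.675), a stress-induced phosphatase subunit, Adamts4 (0.883, 0.71) and Mindy1 (0.874, 0.559). Fbxo32 was closest to Npc1 (0.869, 0.794), Spns2 (0.855, 0.776) and Slc38a2 (0.851, 0.792), an amino acid transporter.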

How the data were processed

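RNA of the left gastrocnemius of 24 mice, 12 per sex, was sequenced per the labels from TruSeq stranded libraries of 0.5 µg total RNA, read as paired ends of 100 bases. The authors deposited 1 whole-number read count per Ensembl gene and sample, with no normalization found in the values. The submitters' processing notes name HISAT2 2.1.0, Salmon 0.9.1, featureCounts, DESeq2 1.24.0 and the builds mm10 and GRCm38.p6, with no role or order; which program counted, the annotation and the use of strand are not given in the sources used here. Positions came from GENCODE M21 (GRCm38), which held 54495 of 54532 genes, and promoters from RefSeq.

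Samples were grouped by their labels. Counts were scaled by TMM, filtered with filterByExpr (minimum count 10) and tested with edgeR 4.0.16 quasi-likelihood F tests (robust, two-sided) in R 4.3.3, within each sex on 12 samples, and on 24 samples for sex differences and controls. P-values were adjusted by Benjamini-Hochberg over all genes tested. The SE is the one that corresponds to the test's F. CPM values use TMM factors over 24 samples, and log2 CPM a prior count of 2.

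The 10 genes, the 7 pathway lists and 9 marker lists were chosen with earlier results of these data known. All 10 genes are named whatever their values, and from each list up to 2 genes that rose and 2 that fell, smallest p first, or the first of the list where none passed, of which the text prints a part. Total counts of 17612139 to 34039699 per library set the precision.

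Alternatives were DESeq2 1.42.0, DESeq2 size factors in edgeR, scaling to fibre genes, other filters on low counts, other sets of samples, the replicate number as a block, the library number, 1 surrogate variable (sva 3.50.0), GC content and length, and each sample left out. Alternatives added after seeing the data left out 2 libraries together and split by library number. The fits were tested on simulated data. Tables and figures used Python 3.11.15, pandas 2.3.3, SciPy 1.17.1 and matplotlib 3.10.9.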

Additional observations from a re-analysis of the deposited data

Results flagged for a closer look

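In each group of 4 the highest and the lowest CPM of each of the 10 genes was compared with its nearest neighbour, as a share of the group's range, and 15 of 60 groups had a sample beyond Dixon's limit for 4 samples. Chance flags about 1 in 20 groups, or 3 of 60, and the 15 are not independent, since 5 come from male sedentary pain replicate 1, 3 from female control replicate 4 and 2 from male active pain replicate 2. Male sedentary pain replicate 1 was far above its group for Cdkn1a (391 CPM), Gadd45a (77.7 CPM) and Trim63 (835 CPM), and far below it for Klf15 (7.19 CPM) and Mstn (6.46 CPM). Male active pain replicate 2 was far above its group for Cdkn1a (146 CPM) and Gadd45a (36.1 CPM). Female control replicate 4 was far above the other controls for Fbxo32 (579.9 CPM), Klf15 (54.3 CPM) and Cdkn1a (57.5 CPM). The remaining 5 samples were single: Trim63 in female sedentary pain replicate 2 (628 CPM) and Fbxo32 in male control replicate 4 (576 CPM) were high, Ddit4 in male control replicate 3 (17.3 CPM) and Cdkn1a in female active pain replicate 3 (60.1 CPM) were high, and Ddit4 in female active pain replicate 2 (4.73 CPM) was low.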

How the results depend on the processing

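Of 294 alternative values for the number of the 10 genes called, 267 stayed within 1.5 times the reported number and 27 did not. For female sedentary pain against control the number went from 6, beside 33.5% of all genes, to 3 with 1 surrogate variable (27.6% of all genes), with only the groups compared (20.1%), with all 24 samples in 1 fit (34.9%), and without sedentary pain replicate 2 and control replicate 4 together (16.6%). It ranged from 2 to 6 when 1 sample was left out, with 2 without sedentary pain replicate 2 (24.4%) or 4 (16.9%) or control replicate 1 (20.9%), and 3 without control replicate 2 (19.2%) or 4 (21.3%). For female active against sedentary pain it went from 2, beside 11.9%, to 1 with no filter on low counts (0.667%), with all 24 samples (15.7%) and without that pair (8.17%), to 0 with only the groups compared (0 of all genes), and from 0 to 4 when 1 sample was left out. It was 0 without active pain replicate 1, 2 or 4 or sedentary pain replicate 4, where 0 of all genes passed too, and without sedentary pain replicate 3 (3 genes, 0.0204%), 1 without sedentary pain replicate 2 (11.9%), and 4 without sedentary pain replicate 1 (29%). For the sex difference of active against sedentary pain it ranged from 0 to 4 with 1 sample left out, and for that of sedentary pain against control it was 1 without the male pair that stood apart. For male against female controls it was 2 with only these groups, 1 without that male pair, and 0 to 1 with 1 sample left out. The 1 called value that changed sign was Foxo3 in female sedentary pain, at 0.10 with scaling to fibre genes. The causes were not tested, except that fewer samples enter the fits that leave samples out. Of 2940 alternative values of single genes, 147 had the other sign without being called in either fit.

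Replicate numbers recur in all groups, but same-numbered samples did not deviate together in every pair: their residual correlations ranged from -0.32 to 0.41 in females (6 of 12 above 0.1, and 3 of 12 samples matching their own number best) and from -0.65 to 0.59 in males (4 of 12, and 3). With the replicate block 3 genes were called in female sedentary pain, Foxo1, Klf15 and Cdkn1a, beside 25.8% of all genes, and 1 in active against sedentary pain, beside 11.2%.

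Over all genes, the calls for female sedentary pain went from 4867 to 2847 with only the groups compared and 2442 without the female pair, and from 2486 without sedentary pain replicate 4 to 6674 without sedentary pain replicate 1 when 1 sample was left out (2864, 3107 and 3161 without control replicate 2, 1 and 4). For active against sedentary pain they went from 1730 to 0 with only the groups compared, 174 without a filter, 2745 with library number, 2795 with fibre gene scaling, 2921 with GC content, length and block, and 3010 in DESeq2, and from 0 to 4316 when 1 sample was left out. DESeq2 also called 270 genes in male sedentary pain, 127 in male active pain and 125 in female active pain against control, and 133 in the sex difference of active against sedentary pain, where edgeR called 0. Of the alternative values for named list genes that had passed, 833 kept the call and 186 lost it, with the same sign. With 4 animals a group, differences of the size of the SE printed cannot be detected.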
